A study of Mus musculus with 6 samples.

Results

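The eosinophil genes described here are 8 genes that mark eosinophils in mice, namely *Epx*, *Prg2*, *Prg3*, *Ear1*, *Ear6*, *Siglecf*, *Ccr3* and *Il5ra*, out of 55421 genes counted in RNA sequencing of splenic monocytes. They were picked as eosinophil markers with their counts in the 6 libraries and their difference between the genotypes already in view. Their own values are therefore given as a description and without a test. Of the 8 genes, 7 had enough counts to enter the test across 13849 genes, and *Il5ra* did not.

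The cells came from the spleens of 6 mice with 1 library each, 3 of them IL-4Rα+/+ and the other 3 IL-4Rα-/-. IL-4Rα is the chain shared by the receptors for IL-4 and IL-13, and the IL-4Rα-/- mice lack it in every cell, not only in the monocytes. All mice were of the C57BL/6 strain, and the labels give no treatment, age or sex, while the ages in the study's methods are those of young adult mice. The monocytes were enriched by negative selection, in which antibodies and magnetic beads take out other cells and leave the monocytes untouched, so rare cells that the antibodies miss stay in the preparation.

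Eosinophils are granulocytes that mature in the bone marrow under IL-5, circulate in blood and settle in tissues, the spleen among them. Their granules hold a peroxidase, major basic protein and, in mice, a family of ribonucleases, and the messages for these proteins are made mostly while the cell matures. On the surface they carry the IL-5 receptor, the eotaxin receptor CCR3 and the lectin Siglec-F. IL-4 and IL-13 make tissue cells release eotaxins, the chemokines that draw eosinophils in through CCR3.

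The targeted gene was lower in all IL-4Rα-/- libraries. *Il4ra* stood at 137, 128 and 177 CPM (counts scaled to libraries of equal size with edgeR's TMM factors) in IL-4Rα+/+ replicates 1, 2 and 3, and at 27.9, 79.4 and 31.8 CPM in IL-4Rα-/- replicates 1, 2 and 3. Each library held 26807281 to 29033297 reads on genes, so 1 count was 0.0338 to 0.0377 CPM. The labels give no batch or date, and libraries with the same replicate number did not vary together. *Xist*, which is transcribed from the inactive X chromosome, had 15739 counts in IL-4Rα+/+ replicate 1 and 13512 in IL-4Rα-/- replicate 3 and at most 103 in the other 4 libraries, where Y-linked genes were read instead. Values within each of these classes are given below, since IL-4Rα+/+ replicate 1 also stood apart in the eosinophil genes. Pancreatic acinar genes reached a sum of 282 CPM in IL-4Rα-/- replicate 2 and 0.135 to 31.3 CPM in the other libraries.

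The members lie on 6 chromosomes of GRCm38. *Prg2* (chr2:84980461-84983632, plus strand) and its homologue *Prg3* (chr2:84988215-84993886, plus strand) are neighbours. *Ear1* (chr14:43818765-43875517, minus strand) and *Ear6* (chr14:51853699-51854643, plus strand) belong to the ribonuclease cluster of chromosome 14. *Epx* is on chromosome 11 (87864000 to 87875536, minus strand), *Siglecf* on chromosome 7 (43351341 to 43359531, plus strand), *Ccr3* on chromosome 9 (124021972 to 124031689, plus strand) and *Il5ra* on chromosome 6 (106710357 to 106749037, minus strand). *Ear1* overlaps 2 pseudogenes on its own strand and 2 antisense genes, while the other 7 overlap no annotated gene. Of the windows of 75 bases, the read length, along the transcripts of *Ear1*, 39.3% (251 of 639) occur also in *Ear2*, *Ear10* or the pseudogenes *Ear-ps9* and *Ear-ps2*. Reads from those windows can map to several places or lie where annotated genes overlap, and may not have been counted. The *Ear1* counts are therefore uncertain and may come mostly from the rest of the transcript. No window of the other 7 members occurs in an annotated transcript of another gene.

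Sequences upstream of the start sites are shown for a pair of near-identical ribonuclease genes with very different counts and for 3 members that differ in level and in a motif. All come from RefSeq's annotation of GRCm38.p6 and give the 250 bases before the start, 5′ to 3′ on the gene's strand. The first pair is *Ear1* (chr14:43819640-43819889, minus strand) and *Ear2* (chr14:44102404-44102653, plus strand), with bases that differ in their alignment in capitals.
Ear1: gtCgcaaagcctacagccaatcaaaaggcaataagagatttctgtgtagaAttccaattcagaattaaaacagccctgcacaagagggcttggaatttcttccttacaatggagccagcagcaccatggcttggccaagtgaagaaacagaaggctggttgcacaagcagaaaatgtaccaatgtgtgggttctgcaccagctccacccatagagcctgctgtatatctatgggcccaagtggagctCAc
Ear2: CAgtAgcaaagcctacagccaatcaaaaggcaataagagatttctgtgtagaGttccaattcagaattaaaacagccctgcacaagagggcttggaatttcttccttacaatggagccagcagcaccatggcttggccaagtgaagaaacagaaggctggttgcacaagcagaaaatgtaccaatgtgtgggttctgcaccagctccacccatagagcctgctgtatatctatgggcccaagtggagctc
The 2 stretches were 97.6% identical over 252 aligned columns, with 2 substitutions and 4 gap columns near the ends of the windows. The start of *Ear1* in RefSeq lies inside the longer gene that Gencode gives. Their transcripts were 96.0% identical. Against *Ear6*, the identity of *Ear1* was 78.2% upstream and 62.2% in the transcript.

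The next 3 stretches are those of *Prg3* (chr2:84987965-84988214, plus strand), *Ccr3* (chr9:124021721-124021970, plus strand) and *Epx* (chr11:87875537-87875786, minus strand). Capitals mark GATAA, the letters that GATA factors read, on either strand (TTATC on the other strand).
Prg3: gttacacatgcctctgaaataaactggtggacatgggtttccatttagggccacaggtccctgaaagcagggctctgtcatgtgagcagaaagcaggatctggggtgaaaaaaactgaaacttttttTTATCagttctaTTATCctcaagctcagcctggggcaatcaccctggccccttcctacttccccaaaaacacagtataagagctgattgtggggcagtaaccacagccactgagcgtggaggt
Ccr3: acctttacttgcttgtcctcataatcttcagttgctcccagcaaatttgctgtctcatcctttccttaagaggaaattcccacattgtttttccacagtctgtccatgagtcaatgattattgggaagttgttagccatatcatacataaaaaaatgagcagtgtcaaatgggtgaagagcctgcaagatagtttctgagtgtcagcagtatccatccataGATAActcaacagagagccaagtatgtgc
Epx: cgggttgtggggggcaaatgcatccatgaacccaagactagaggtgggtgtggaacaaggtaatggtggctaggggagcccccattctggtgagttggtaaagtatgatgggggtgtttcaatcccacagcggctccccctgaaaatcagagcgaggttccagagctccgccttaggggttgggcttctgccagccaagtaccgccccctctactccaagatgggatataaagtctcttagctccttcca
*Prg3* held 2 matches, from -123 to -119 and from -111 to -107 relative to the start, *Ccr3* held 1 from -29 to -25, and *Epx* held none. GATAA stood in the windows of 3 of the 7 members in the table (*Prg3*, *Ccr3* and *Il5ra*), beside 22.6% of 32851 promoters of the same length. A C/EBP motif, TTNCNNAA, occurred in 5 of 7 members beside 36.8% of all promoters, and a PU.1 motif, GAGGAA, in 2 of 7 beside 23.3%. In *Ccr3* the C/EBP and PU.1 matches lie next to each other without overlap, and letters matched in a window do not show a bound site. *Prg2* was not in the table.

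The granule protein genes were read at low levels in all preparations, and IL-4Rα+/+ replicates 2 and 3 had the fewest of their reads. *Epx* encodes eosinophil peroxidase, the enzyme that makes hypobromous acid in the granule. It stood at 1.51, 0 and 0.264 CPM in IL-4Rα+/+ replicates 1, 2 and 3, and at 1.39, 2.31 and 2.94 CPM in IL-4Rα-/- replicates 1, 2 and 3. The 0 in IL-4Rα+/+ replicate 2 allows up to 3 counts, or 0.108 CPM. The genotypes overlapped, because IL-4Rα+/+ replicate 1, with 43 counts, lay above IL-4Rα-/- replicate 1, with 39.

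*Prg2* encodes major basic protein, the cationic core of the granule, and had the highest mean level of the granule genes, although *Prg3* was above it in IL-4Rα+/+ replicates 2 and 3. It stood at 10.4, 2.35 and 2.30 CPM in IL-4Rα+/+ and at 14.4, 11.8 and 15.9 CPM in IL-4Rα-/- replicates 1, 2 and 3. All IL-4Rα-/- libraries were above all IL-4Rα+/+ libraries, but IL-4Rα+/+ replicate 1 was nearer to the IL-4Rα-/- libraries than to the others of its group. *Prg3*, which encodes a homologue of major basic protein, stood at 6.78, 3.33 and 2.75 CPM in IL-4Rα+/+ and at 5.71, 3.25 and 6.59 CPM in IL-4Rα-/-. Its highest library was IL-4Rα+/+ replicate 1, and the genotypes overlapped. The ratio of *Prg2* to *Prg3* counts was 1.54, 0.707 and 0.836 in IL-4Rα+/+ and 2.52, 3.63 and 2.42 in IL-4Rα-/- libraries. This ratio was picked after the values were seen and is given as a description.

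*Ear1* and *Ear6* encode eosinophil-associated ribonucleases, cationic enzymes of the RNase A family. *Ear1* stood at 0.667, 0.217 and 0.340 CPM in IL-4Rα+/+ and at 1.39, 1.08 and 1.82 CPM in IL-4Rα-/- replicates 1, 2 and 3. These are 6 to 19 counts against 31 to 54 counts, without overlap. *Ear6* stood at 2.00, 0.506 and 0.490 CPM in IL-4Rα+/+ and at 2.18, 1.29 and 2.33 CPM in IL-4Rα-/-. Here IL-4Rα+/+ replicate 1 lay above IL-4Rα-/- replicate 2, so the genotypes overlapped.

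*Ear2*, the nearest relative of *Ear1*, followed neither. It stood at 211, 181 and 96.8 CPM in IL-4Rα+/+ and at 164, 71.0 and 142 CPM in IL-4Rα-/- libraries, with 65.5 to 835 counts for each count of *Ear1*. Its highest ratio to *Ear1* was in IL-4Rα+/+ replicate 2 (5010 against 6 counts) and its lowest in IL-4Rα-/- replicate 2 (2029 against 31 counts). *Ear2* shared fewer of its windows with relatives, 23.4% against 39.3%. *Ear10* had at most 1 count in any library and *Ear14* had none.

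The surface receptors had other patterns over the libraries. *Siglecf* encodes a sialic acid-binding lectin that inhibits eosinophils and is also found on alveolar macrophages. It stood at 0.948, 1.48 and 0.754 CPM in IL-4Rα+/+ and at 0.678, 0.665 and 0.811 CPM in IL-4Rα-/- libraries. It was the member with a lower mean in IL-4Rα-/-, and its highest value was in IL-4Rα+/+ replicate 2, where *Epx* was not read. *Il5ra* encodes the ligand-binding chain of the IL-5 receptor. It had 8, 12 and 1 counts in IL-4Rα+/+ and 2, 4 and 43 counts in IL-4Rα-/- replicates 1, 2 and 3. Its mean of 0.555 ± 0.779 CPM (SD, n = 3) in IL-4Rα-/- mice rested on replicate 3 alone.

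*Ccr3* encodes the receptor through which eosinophils, and also basophils and some T cells, respond to eotaxins. It stood at 52.7, 67.0 and 66.8 CPM in IL-4Rα+/+ and at 137, 89.6 and 73.3 CPM in IL-4Rα-/- replicates 1, 2 and 3, or 1501 to 3840 counts. The genotypes did not overlap, but the gap between 67.0 and 73.3 CPM was small beside the spread among IL-4Rα-/- libraries. The order of the IL-4Rα-/- libraries was not that of the granule genes, which were highest in replicate 3, where *Ccr3* was lowest.

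**Figure D1:**
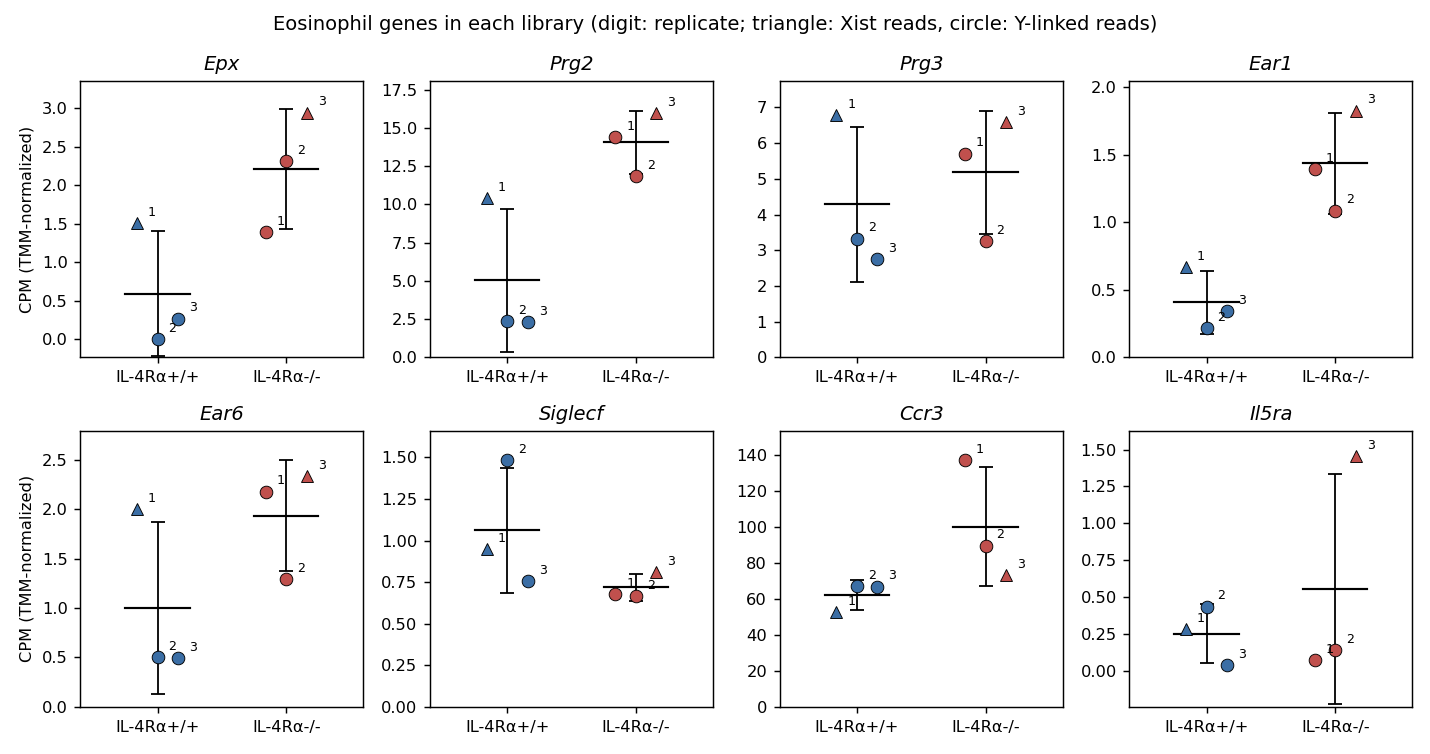
Each panel plots 1 gene in CPM (TMM-normalized) for the 3 IL-4Rα+/+ (blue) and 3 IL-4Rα-/- (red) libraries, with the mean as a long line and the SD as a bar, and axes that differ between panels. In *Epx*, *Prg2*, *Prg3* and *Ear6* the blue triangle, IL-4Rα+/+ replicate 1, lies near the red points, at 10.4 CPM for *Prg2* against 11.8 CPM in the lowest red library, while *Ccr3* has its highest point, 137 CPM, in IL-4Rα-/- replicate 1.

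Between the genotypes, the mean was higher in IL-4Rα-/- for 7 of the 8 genes and lower for *Siglecf*, where over all genes tested 51.5% had a log2 fold change above 0. *Epx* had 0.591 ± 0.806 CPM in IL-4Rα+/+ and 2.21 ± 0.779 CPM in IL-4Rα-/- (SD, n = 3 each), a ratio of 3.74 and a log2 fold change of 1.89 with an SE of 1.07. *Prg2* went from 5.03 ± 4.68 to 14.1 ± 2.08 CPM, a ratio of 2.80 (log2 fold change 1.48, SE 0.60). *Ear1* went from 0.408 ± 0.233 to 1.43 ± 0.372 CPM, a ratio of 3.52 (log2 fold change 1.80, SE 0.46). The smaller ratios were 1.94 for *Ear6*, 1.61 for *Ccr3*, 1.21 for *Prg3* and 0.676 for *Siglecf*. The *Ccr3* mean was 62.2 ± 8.22 CPM in IL-4Rα+/+ and 99.98 ± 33.1 CPM in IL-4Rα-/- monocytes (SD, n = 3 each). In bulk RNA a difference in the number of cells that carry a message and a difference in message per cell cannot be told apart.

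Libraries of the genotypes did not overlap in 3 of the 8 genes, *Prg2*, *Ear1* and *Ccr3*, all higher in IL-4Rα-/-, beside 7.63% of all genes tested that were higher without overlap, 7.87% that were lower and 15.5% in either direction. The median log2 fold change of the 7 genes was 0.95, beside 0.0084 over all genes tested. At the study's threshold of 0.15 after Benjamini-Hochberg adjustment, the quasi-likelihood test of edgeR called no gene of the 13849 (0.0%), members included, with a smallest adjusted p of 0.618. At an unadjusted p under 0.05 it held 1120 genes (8.09%), of which 3.72% of all genes were higher and 4.37% lower. DESeq2 called 80 of 14003 genes (0.571%), 1 of them a member, *Ear1*. Since the members were chosen on this comparison, nothing is read from that call or from how many of them stand on either side.

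IL-4Rα+/+ replicate 1 set the size of these differences. Without it, the IL-4Rα+/+ libraries held 0 and 7 counts of *Epx*, and the ratio of the means was 16.8 in place of 3.74. For *Prg2* the ratio became 6.04, for *Ear1* 5.15 and for *Ear6* 3.88. *Ccr3* moved little, to 1.49, and *Siglecf* to 0.642, whose log2 fold change of -0.56 became -0.25 without IL-4Rα+/+ replicate 2. None of the 7 tested members changed the sign of its log2 fold change under any of 12 other settings, and that of *Prg3* came down to 0.04.

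**Figure D2:**
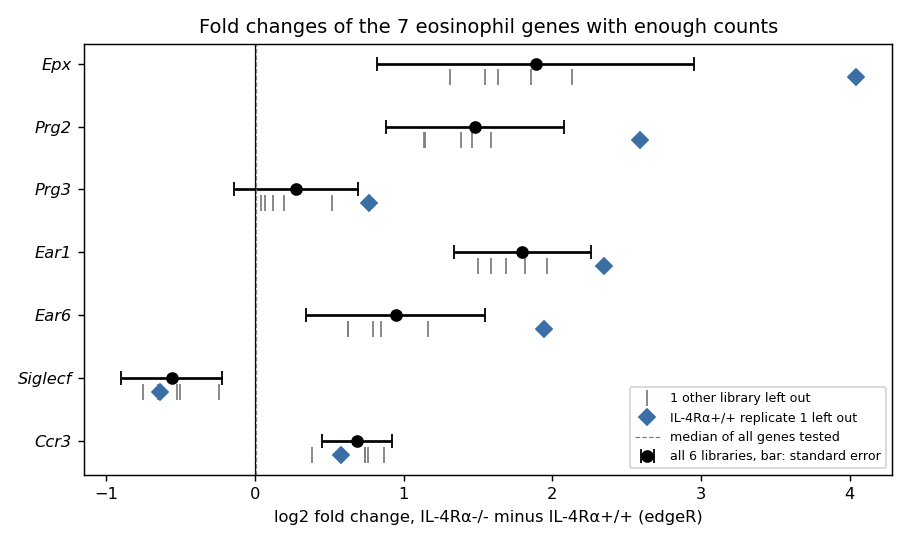
The horizontal axis gives edgeR's log2 fold change, IL-4Rα-/- minus IL-4Rα+/+, for the 7 members tested, with all 6 libraries as a black point with its SE, IL-4Rα+/+ replicate 1 left out as a blue diamond and each other library left out as a grey tick. *Epx* moved from 1.89 to 4.04 and *Ear6* from 0.95 to 1.95 without that library, and *Siglecf* alone lies below 0 throughout.

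Within the *Xist* class, where each genotype has 1 library, the granule genes differed less. The IL-4Rα-/- to IL-4Rα+/+ ratio was 1.95 for *Epx*, 1.53 for *Prg2*, 0.973 for *Prg3*, 2.74 for *Ear1*, 1.17 for *Ear6* and 1.39 for *Ccr3*, with no replicate behind it. In the class with Y-linked reads, with 2 libraries per genotype, the ratios were 14.0, 5.63, 1.47, 4.45, 3.48 and 1.69 in the same order. There 5 of the 8 genes were higher in both IL-4Rα-/- than in both IL-4Rα+/+ libraries and 1, *Siglecf*, was lower, beside 18.9% and 17.6% of all genes tested. *Il5ra* had a ratio of 5.17 in the first class and 0.448 in the second, and *Siglecf* 0.856 and 0.600. The direction differed between the classes for *Il5ra* and was shared for the other members except *Prg3*. In the *Xist* class *Prg3* was nearly equal, at 193 counts in IL-4Rα+/+ replicate 1 and 195 in IL-4Rα-/- replicate 3. Whether the genotype difference itself differed between the classes was not tested.

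Summed over *Epx*, *Prg2*, *Prg3*, *Ear1* and *Ear6*, the granule genes had 609, 177 and 163 counts in IL-4Rα+/+ and 702, 565 and 877 counts in IL-4Rα-/- replicates 1, 2 and 3. This was 21.4, 6.40 and 6.15 CPM against 25.04, 19.8 and 29.6 CPM. They therefore made up between 0.000608% and 0.00305% of the reads on genes. *Csf1r*, the CSF-1 receptor that marks monocytes, had 80.8 to 439 counts for each count of the granule genes, so the granule genes were a trace beside the monocyte messages.

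The 5 granule genes varied together over the 6 libraries, *Prg3* least. On log2 CPM, the Pearson r of their 10 pairs ran from 0.60 (*Epx* with *Prg3*) to 0.97 (*Prg2* with *Ear6*), with a median of 0.89. With the genotype means taken out it ran from 0.57 to 0.97, with a median of 0.88. The points are 6 libraries that all pairs share, of which IL-4Rα+/+ replicates 2 and 3 were the lowest in every granule gene but *Prg3*.

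*Ccr3* had a lower r. Its r with the granule genes was 0.04 to 0.52, and with the genotype means taken out it was -0.55 to -0.30. For each granule gene count there were 2.46, 10.5 and 10.9 counts of *Ccr3* in IL-4Rα+/+ and 5.47, 4.53 and 2.47 in IL-4Rα-/- libraries. *Siglecf* had an r of -0.76 to -0.10 with the granule genes and 0.0271 to 0.232 counts for each of theirs. *Il5ra*, with few counts, had an r of 0.15 to 0.50. Ranks separated the genes less. Spearman's rho was 0.43 to 0.94 among the granule genes, with 0.43 for *Prg3* with *Epx* and with *Ear1*, and -0.14 to 0.66 between them and *Ccr3*, -0.49 to 0.43 for *Siglecf* and 0.20 to 0.60 for *Il5ra*.

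Per length the members also differed in order. CPM per kilobase of exon, averaged over the 6 libraries, was 24.8 for *Ccr3*, 11.4 for *Prg2*, 4.99 for *Prg3*, 1.55 for *Ear6*, 1.26 for *Ear1*, 0.512 for *Epx*, 0.319 for *Siglecf* and 0.113 for *Il5ra*. *Ccr3* made up 40.6% to 74.5% of this total in a library and *Prg2* 9.92% to 34.5%. Neighbours in this order overlapped in range over the libraries, except that *Prg3*, at 2.90 to 7.14 CPM per kilobase, lay above *Ear6*, at 0.519 to 2.47 CPM per kilobase. *Ear2* lay far above them all, at 98.8 to 293 CPM per kilobase.

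Markers of other cells moved with the members, and the whole lists are given beside them. The 13 basophil and mast cell genes summed to 20.6 to 31.6 CPM in IL-4Rα+/+ and 42.9 to 76.6 CPM in IL-4Rα-/- libraries, without overlap. Of the 10 of them tested, 8 were higher and 7 of those without overlap, beside 51.5% and 7.63% of all genes tested. None was called by edgeR at the threshold of 0.15. DESeq2 called *Cpa3*, *Ms4a2* and *Hdc*, beside 0.571% of all genes, and they are named after that call was seen. *Prss34* and *Mcpt8*, proteases of basophils, went from 9.03 ± 4.85 to 23.8 ± 7.82 CPM and from 3.95 ± 2.08 to 10.8 ± 4.16 CPM (SD, n = 3 each). *Kit*, the stem cell factor receptor of mast cells and progenitors, did not share this (6.28 ± 2.24 and 5.42 ± 0.857 CPM), and the mast cell proteases *Tpsb2*, *Tpsab1* and *Mcpt4* had no count in any library.

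The sum of the basophil list had an r of 0.91 with *Ear1*, 0.80 with *Prg2*, 0.76 with *Epx* and *Ear6*, 0.74 with *Ccr3* and 0.52 with *Prg3* over the 6 libraries. With the genotype means taken out it was lower for all of these but *Prg3*, at 0.62 for *Ear1*, 0.37 for *Prg2*, 0.41 for *Epx*, 0.51 for *Ear6*, 0.30 for *Ccr3* and 0.53 for *Prg3*. IL-4Rα+/+ replicate 1, the high granule gene library of its group, had a basophil sum of 30.9 CPM, beside 20.6 and 31.6 CPM in replicates 2 and 3. The part of basophils in these values was not tested.

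*Ccr3* had its highest r with the red pulp macrophage list. These 11 genes of the iron-recycling macrophages of the spleen, which include *Hmox1*, *Vcam1* and *Slc40a1*, summed to 3950, 3521 and 3391 CPM in IL-4Rα+/+ and to 7276, 4941 and 4485 CPM in IL-4Rα-/- replicates 1, 2 and 3. All 11 were higher in IL-4Rα-/-, 6 of them without overlap, beside 51.5% and 7.63% of all genes tested, and none was called by edgeR or by DESeq2. The order of the IL-4Rα-/- libraries in *Ccr3* was that of this sum. The order of the IL-4Rα+/+ libraries was not. There replicate 1 had the highest sum, 3950 CPM, and the lowest *Ccr3*, 52.7 CPM. Over the 6 libraries the r was 0.90, and 0.75 with the genotype means taken out. The r of this sum with the granule genes was 0.74 for *Ear1*, 0.73 for *Prg2*, 0.68 for *Ear6*, 0.57 for *Epx* and 0.43 for *Prg3*, and -0.01 to 0.35 with the genotype means taken out. IL-4Rα-/- replicate 1 was the highest in both, and the part of macrophages in the *Ccr3* reads was not tested.

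**Figure D3:**
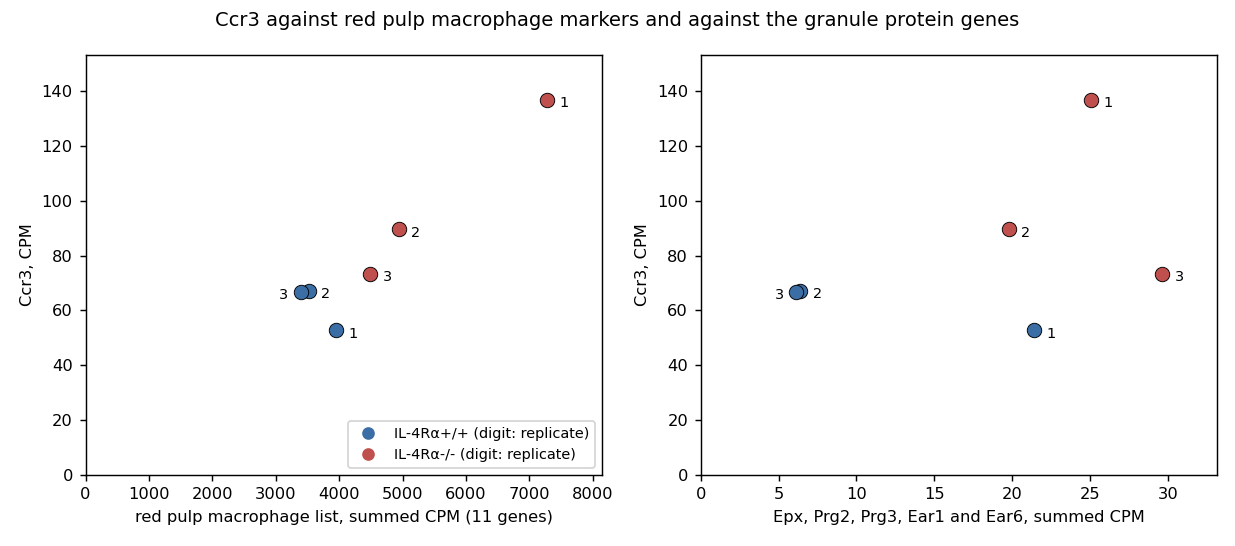
*Ccr3* in CPM (vertical axis) is plotted against the summed CPM of 11 red pulp macrophage genes (left) and of the 5 granule genes (right), with 1 point per library, blue for IL-4Rα+/+ and red for IL-4Rα-/- and the replicate number beside it. The red points fall in the same order on both axes at left, from 4485 and 73.3 CPM to 7276 and 137 CPM. The blue points do not, and the one with the highest sum, 3950 CPM, has the lowest *Ccr3*, 52.7 CPM. At right the library with the highest granule sum, 29.6 CPM, has the lowest *Ccr3* of the red points.

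The remaining lists are given in turn. The 13 erythroid genes summed to 84.6 to 144 CPM in IL-4Rα+/+ and 200 to 485 CPM in IL-4Rα-/- libraries, without overlap, led by the globins *Hbb-bs*, *Hba-a1* and *Hbb-bt*. All 13 were higher in IL-4Rα-/-, 10 of them without overlap, beside 51.5% and 7.63% of all genes tested. The r of their sum with the granule genes was 0.25 to 0.68. With the genotype means taken out it was -0.34 to 0.02. Promyelocyte genes summed to 6.61 to 46.4 CPM in IL-4Rα+/+ and 35.1 to 89.9 CPM in IL-4Rα-/- and neutrophil genes to 364 to 695 and 466 to 1112 CPM, with overlap. Of the 11 neutrophil genes tested, 10 had a positive log2 fold change, 1 of them without overlap, beside the same shares of all genes. All 5 promyelocyte genes tested did too, 2 of them without overlap, and edgeR called none of either list. *Siglecf* ran against the promyelocyte sum, with an r of -0.98, on 19 to 41 counts per library. *Il5ra* was nearest to the T and NK cell sum (r of 0.65). *Prg3* was nearer to the megakaryocyte (0.73), dendritic cell (0.64) and T and NK cell (0.60) sums than to the basophil or red pulp macrophage sums. The monocyte list, led by *Csf1r*, *Ace* and *F13a1*, summed to 11037 to 11461 CPM in IL-4Rα+/+ and 9790 to 11770 CPM in IL-4Rα-/-, and its r with the granule genes was -0.73 to -0.32. Sums of B and plasma cell (587 to 928 and 705 to 773 CPM), T and NK cell (47.8 to 124 and 45.0 to 111 CPM), dendritic cell (519 to 890 and 488 to 685 CPM) and megakaryocyte genes (26.5 to 68.7 and 16.9 to 45.8 CPM) overlapped between the genotypes.

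**Figure D4:**
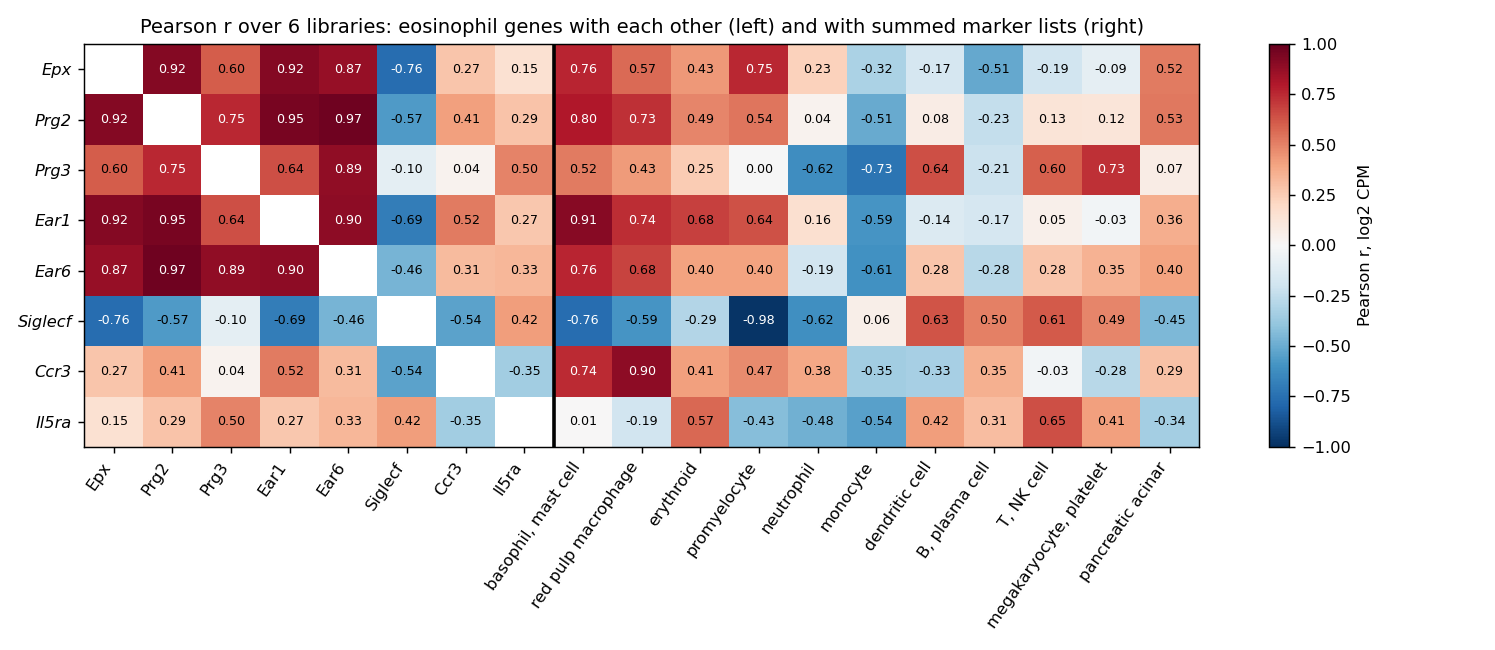
Each cell gives the Pearson r of log2 CPM over the 6 libraries, between the 8 members (left of the black line) and between each member and the summed CPM of 11 marker lists (right). The 5 granule genes form a block of 0.60 to 0.97, *Siglecf* is negative with all of them, and *Ccr3* has its highest value, 0.90, with the red pulp macrophage list.

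A wider list of 68 genes of eosinophil development, recruitment and function and of homologues of the members was split in direction. Of the 51 tested, 30 were higher and 21 lower in IL-4Rα-/-, with a median log2 fold change of 0.04. The quasi-likelihood test of edgeR called none at a Benjamini-Hochberg adjusted p of 0.15 (0.0% of all genes). At an unadjusted p under 0.05 there were 3 of the 51, beside 8.09% of all genes, and DESeq2 called 1, beside 0.571%. These counts do not set the list apart. That gene was *Itga4*, an integrin alpha chain that eosinophils and monocytes share. It stood at 1249 ± 202 CPM in IL-4Rα+/+ and at 769 ± 76.6 CPM in IL-4Rα-/- (SD, n = 3 each), the only tested gene of the list without overlap (15.5% of all genes), with an adjusted p of 0.618 by edgeR and 0.0139 by DESeq2. The other 2 at an unadjusted p under 0.05 were *Gata2*, a factor of basophil, mast cell and early eosinophil development (log2 fold change 1.28, SE 0.50), and *Cd24a*, a surface protein of many immature blood cells (0.77, SE 0.27). Both had an adjusted p of 0.618 by edgeR.

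By role, 13 transcription factors were tested, and 9 had a positive log2 fold change. *Spi1* (634 ± 30.4 and 605 ± 13.7 CPM), *Cebpb*, *Irf8* and *Xbp1* were the most abundant, all of them also expressed by monocytes. Among the factors that set the eosinophil lineage, *Gata1* had 32, 2 and 14 counts in IL-4Rα+/+ and 30, 27 and 78 in IL-4Rα-/- libraries, and *Cebpe* 52, 60 and 78 against 102, 104 and 54 counts, both with overlap. These genes, like *Gata2*, *Cd24a* and *Itga4* above, were named after their values were seen. *Gata1* was lowest in IL-4Rα+/+ replicate 2, where *Epx* was not read and the erythroid sum, 144 CPM, was the highest of its group. It was highest in IL-4Rα-/- replicate 3, which also had the highest erythroid sum, 485 CPM. The part of erythroid cells in the *Gata1* counts was not tested.

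Of the cytokines and their receptors, 7 of 13 were tested, and *Il5* and *Il3*, the eosinophil growth factors, had no count in any library. *Csf2ra* stood at 689 ± 58.8 CPM in IL-4Rα+/+ and 590 ± 54.7 CPM in IL-4Rα-/-, and *Csf2rb*, the chain that *Il5ra* signals with, at 407 ± 37.0 and 408 ± 141 CPM (SD, n = 3 each). *Crlf2* and *Csf2rb2* differed as little, with log2 fold changes of 0.01 and -0.07. The shared chain was thus read at 310 to 569 CPM in libraries where *Il5ra* had 1 to 43 counts.

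Of the chemokine ligands on the list, only *Ccl5* and *Ccl24* were tested. *Ccl5* stood at 101 ± 54.6 CPM in IL-4Rα+/+ and 77.8 ± 37.4 CPM in IL-4Rα-/-, and *Ccl24*, an eotaxin, at 2.52 ± 0.165 and 2.88 ± 1.05 CPM (SD, n = 3 each). *Ccl8* had 1 to 23 counts and *Ccl7* at most 3. *Ccl11*, named after its values were seen, had at most 1 count in any library. Of 8 chemoattractant and other receptors tested, 6 had a positive log2 fold change, none without overlap. *Pirb*, *Fcgr3*, *Pilra* and *Ptafr* led them, with log2 fold changes between -0.17 and 0.24.

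The lipid mediator enzymes *Alox5ap*, *Alox5*, *Alox15* and *Ltc4s* all overlapped between the genotypes. *Alox15*, a lipoxygenase of eosinophils and some macrophages, had 48, 260 and 44 counts in IL-4Rα+/+ and 402, 233 and 107 counts in IL-4Rα-/- libraries, and its order was not that of *Epx*. Of the 13 surface and adhesion genes, 5 had a positive and 8 a negative log2 fold change. *Adgre1*, which encodes F4/80, and *Selplg*, the selectin ligand, differed by 0.19 and 0.02 on the log2 scale, and *Adgre4* by -0.34. Among the homologues, *Mpo*, the peroxidase of neutrophil precursors, stood at 7.44 ± 5.48 CPM in IL-4Rα+/+ and 16.02 ± 5.06 CPM in IL-4Rα-/-, and *Rnase4* and *Ang*, ribonucleases of other tissues, at log2 fold changes of 0.15 and 0.37. *Mpo* was lowest in IL-4Rα+/+ replicate 2, like *Epx*, but IL-4Rα+/+ replicate 3 had 317 counts of *Mpo* against 7 of *Epx*.

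Among 11140 other protein-coding genes with a mean of at least 1 CPM, the 10 whose log2 CPM most resembled the mean of the tested members were *Mcm5*, *Hmgb1*, *Nup35*, *Pcx*, *Pgrmc1*, *Tuba1c*, *Fen1*, *Fancd2*, *Ubac1* and *Dlgap5*. Their r was 0.98 to 0.99 over 6 libraries, and 112 genes reached 0.9. *Mcm5*, a subunit of the replicative helicase, stood at 38.1 ± 7.95 CPM in IL-4Rα+/+ and 50.8 ± 4.17 CPM in IL-4Rα-/- (SD, n = 3 each), and *Dlgap5*, a spindle protein, at 4.70 ± 2.11 and 7.58 ± 1.15 CPM. None of the 10 was on a marker list. With the genotype means taken out, or by Spearman's rho, only 1 of the 10 stayed among the 10 nearest, so the ranking rests on small differences among many genes over few libraries.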

How the data were processed

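Polyadenylated RNA from splenic monocytes of 6 mice, 3 per genotype, was sequenced as directional libraries with 75 bp single-end reads. The authors mapped them to GRCm38 with STAR 2.6.1a and Gencode release M23 and deposited the read counts per gene that STAR gave, without normalization. Per the labels' processing notes bcl2fastq 2.19.1.403, RSEM and DESeq2 1.22.2 were also used. Which strand column was kept is not given in the sources used here, so *Ear1*, which overlaps other genes, is uncertain. Reads that STAR listed under no gene were left out (21.1% to 22.8% of reads, of which multimapping reads were 8.30% to 9.35% of all). Gene symbols and positions came from Gencode release M21, in which 55154 of the 55421 identifiers were found, and upstream sequences from RefSeq.

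Here, genes were kept by filterByExpr with a minimum count of 10, normalized by TMM and tested by quasi-likelihood in edgeR 4.0.16 (R 4.3.3), with Benjamini-Hochberg adjustment over 13849 genes and the study's threshold of 0.15. The other tool was DESeq2 1.42.0. Groups came from the labels alone. The mice are separate animals, so the spread covers animals and preparation together. Log2 CPM used a prior count of 2. The SE of a log2 fold change was worked back from the quasi-likelihood test, as its absolute value divided by the square root of the F statistic. A count of 3 or fewer was taken as not seen, and such limits cover counting error only. The step was tested on simulated counts. Correlations of same-numbered libraries in their deviations from the group means were 0.18, -0.27 and -0.30 over 13849 genes, so the numbers were not taken as pairs.

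The members, the gene lists and the tests were chosen with earlier results of these data known. The genes named were the members, *Il4ra*, up to 4 genes of each role of the wider list and up to 3 of each other list by highest mean CPM, all *Ear* genes with a number, and the 10 genes most alike the members. Any other gene was named after its values were seen, such as the transcription factors of the eosinophil lineage, genes that DESeq2 called and genes without a count. Alternatives changed the scaling, the test, the filter, the prior count, the threshold, the gene length and the block and left out each library, and the *Xist* class as a covariate was added after seeing the data.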

Additional observations from a re-analysis of the deposited data

How the results depend on the processing

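The median log2 fold change of the tested members, 0.95, ran from 0.74 to 1.95 when each library was left out in turn, with 1.95 without IL-4Rα+/+ replicate 1. DESeq2 called 80 genes (0.571%), among them 1 gene of the wider list and 1 member, *Ear1*, where edgeR called none. The cause of this difference between the tools was not tested. Since the members were chosen on this comparison, nothing is read from the call of *Ear1*. With the replicate block edgeR called 0 genes, with a smallest adjusted p of 0.812 and 765 genes at an unadjusted p under 0.05, and the median of the members was 1.19. Only pair 1 had a positive correlation, so the numbers were not taken as pairs, and the block changed no call. With the *Xist* class as a covariate, chosen after seeing the data, edgeR also called 0 genes, 990 had an unadjusted p under 0.05, and the median was 1.22. Over 12 settings the log2 fold change ran from 1.31 to 4.04 for *Epx*, 1.14 to 2.59 for *Prg2*, 0.04 to 0.77 for *Prg3*, 1.498 to 2.35 for *Ear1*, 0.62 to 1.95 for *Ear6*, -0.75 to -0.25 for *Siglecf* and 0.39 to 0.87 for *Ccr3*. Depth limits *Epx*, *Ear1*, *Ear6*, *Siglecf* and *Il5ra*, which had at most 87 counts in any library, and *Il5ra* was left out of these settings because it did not enter the test.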
